A study of Mus musculus with 1920 samples.

Results

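The lysosomal cathepsins and the lysosomal asparaginyl endopeptidase legumain were followed in single microglia of the mouse brain and spinal cord. Their 10 genes are Ctsa, Ctsb, Ctsc, Ctsd, Ctsf, Ctsh, Ctsl, Ctss, Ctsz and Lgmn, chosen by name, and all 10 were found among the 48709 genes of the count table. The cells came from CD1 mice aged 16 weeks. From untreated mice there were spinal cord, corpus callosum, facial nucleus, cerebellum, hippocampus and cortex. Other mice had a facial nerve cut and their facial nucleus was taken 3 or 14 days later, although the tissue label of these wells names the facial nerve. The remaining mice were fed cuprizone, and corpus callosum was taken at the stage labelled demyelination or at the stage labelled remyelination. Each of these 10 groups held 190 wells with a sorted cell, from mice numbered 1 to 4. No transgene, Cre line or engineered allele is named for any group.

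Cathepsins are made as inactive precursors, tagged for transport to endosomes and lysosomes, and activated there at acid pH. Most are cysteine proteases, cathepsin D is an aspartic protease, cathepsin A is a serine carboxypeptidase, and legumain cuts after asparagine and trims several cathepsins to their mature forms. Microglia are macrophages that live in brain and spinal cord, and they use these enzymes to digest engulfed cells, synapses and myelin and to process antigen. Cuprizone is a copper chelator that kills oligodendrocytes and strips the corpus callosum of myelin, which is rebuilt after withdrawal. Cutting the facial nerve outside the brain makes nearby microglia divide and change state around the injured motor neurons, with no direct wound to the nucleus.

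Cells had been sorted on stains for CD206, Ly6G, Ly6C, CD45 and CD11b, with gates not given, and were sequenced by Smart-seq2, a full-length method with 1 cell per well and no molecular identifiers. Of 1900 wells with a cell, 1644 were kept, between 129 (remyelination) and 181 (cerebellum) per group, and their reads were added up per mouse and group into 40 sums of 5298853 to 19964472 gene reads. Levels are given in CPM, a gene's reads relative to all gene reads of the sum, with scaling factors between sums. None of the 20 wells without a cell passed the same limits. Those empty wells still held reads: Ctss in 20, Ctsd and Lgmn in 16 each, and Ctsf in 4, with a median of at most 5 reads per gene and well. None of 12 microglia markers was at 0 in any group, although wells without a cell also held reads of some of them. Summed, these 12 markers reached 50869 to 54551 CPM in untreated corpus callosum and 26265 to 37254 CPM in demyelination. A list of 8 monocyte markers summed to 103 to 426 CPM in corpus callosum, 8811 to 16683 CPM in demyelination and 7811 to 28413 CPM in remyelination, most of it from the lysozyme gene Lyz2 (mean 11024 and 16595 CPM). Ly6c2 was at 0 in both cuprizone groups. The 8 markers of border macrophages summed to 211 to 439 CPM in remyelination, with Cd163 and Lyve1 at 0, against 6.28 to 28.0 CPM in corpus callosum. The remyelination cells also stood apart in quality, with a median of 1517 genes per cell and 18.39% spike-in reads, against 2137 to 2958 genes and 8.127% to 12.41% elsewhere. Untreated and injured groups lay on different plates, so that plate and treatment cannot be told apart, whereas day 3 and day 14 shared a plate, as did the cuprizone stages.

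In untreated microglia the family was dominated by a few genes. Compared per kilobase of exon over the 6 regions, Ctss was highest at 8309 CPM per kb. Ctss encodes cathepsin S, which stays active near neutral pH and cuts the invariant chain of MHC class II (ENSMUSG00000038642, GRCm38 chr3:95526786-95556403, plus strand). Ctsd, the aspartic endopeptidase, followed at 3272 CPM per kb (ENSMUSG00000007891, chr7:142375911-142388038, minus strand). Lgmn was close behind at 2886 CPM per kb (ENSMUSG00000021190, chr12:102394084-102439813, minus strand). Ctsz, a carboxypeptidase that removes C-terminal residues, reached 1788 CPM per kb (ENSMUSG00000016256, chr2:174427493-174439039, minus strand). On this scale these 4 genes were well above the remaining members, which ran from 185 to 553 CPM per kb. The scale rests on annotated exon length, which was 1441 bases for Ctsz and 4739 bases for Ctsb. Without it Ctsz (2577 CPM) and Ctsb (2620 CPM) were close.

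Among those lower members, Ctsb came first with 553 CPM per kb. It encodes an endopeptidase that also trims dipeptides from C termini (ENSMUSG00000021939, chr14:63122462-63145919, plus strand). The endopeptidase gene Ctsl reached 411 CPM per kb (ENSMUSG00000021477, chr13:64363214-64370306, minus strand). Ctsa, whose product also protects beta-galactosidase and neuraminidase in a complex, reached 380 CPM per kb (ENSMUSG00000017760, chr2:164832873-164841032, plus strand). The aminopeptidase gene Ctsh (ENSMUSG00000032359, chr9:90054152-90076089, plus strand) and the dipeptidyl peptidase gene Ctsc (ENSMUSG00000030560, chr7:88278085-88310888, plus strand) were at 232 and 213 CPM per kb. Ctsf was lowest at 185 CPM per kb (ENSMUSG00000083282, chr19:4855129-4860912, plus strand). Exons of Ctsa, Ctsb, Ctsd and Ctsz overlap those of neighbouring genes. Gm49369, within Ctsd, shares 808 of its 2351 exon bases and had 556 reads of its own. Fdft1 beside Ctsb shares 767 bases and had 4390 reads, and the overlap between Ctsz and Nelfcd was 10 bases. These counts do not show how reads on shared bases were assigned, so the effect on values per kilobase was not tested.

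**Figure D1:**
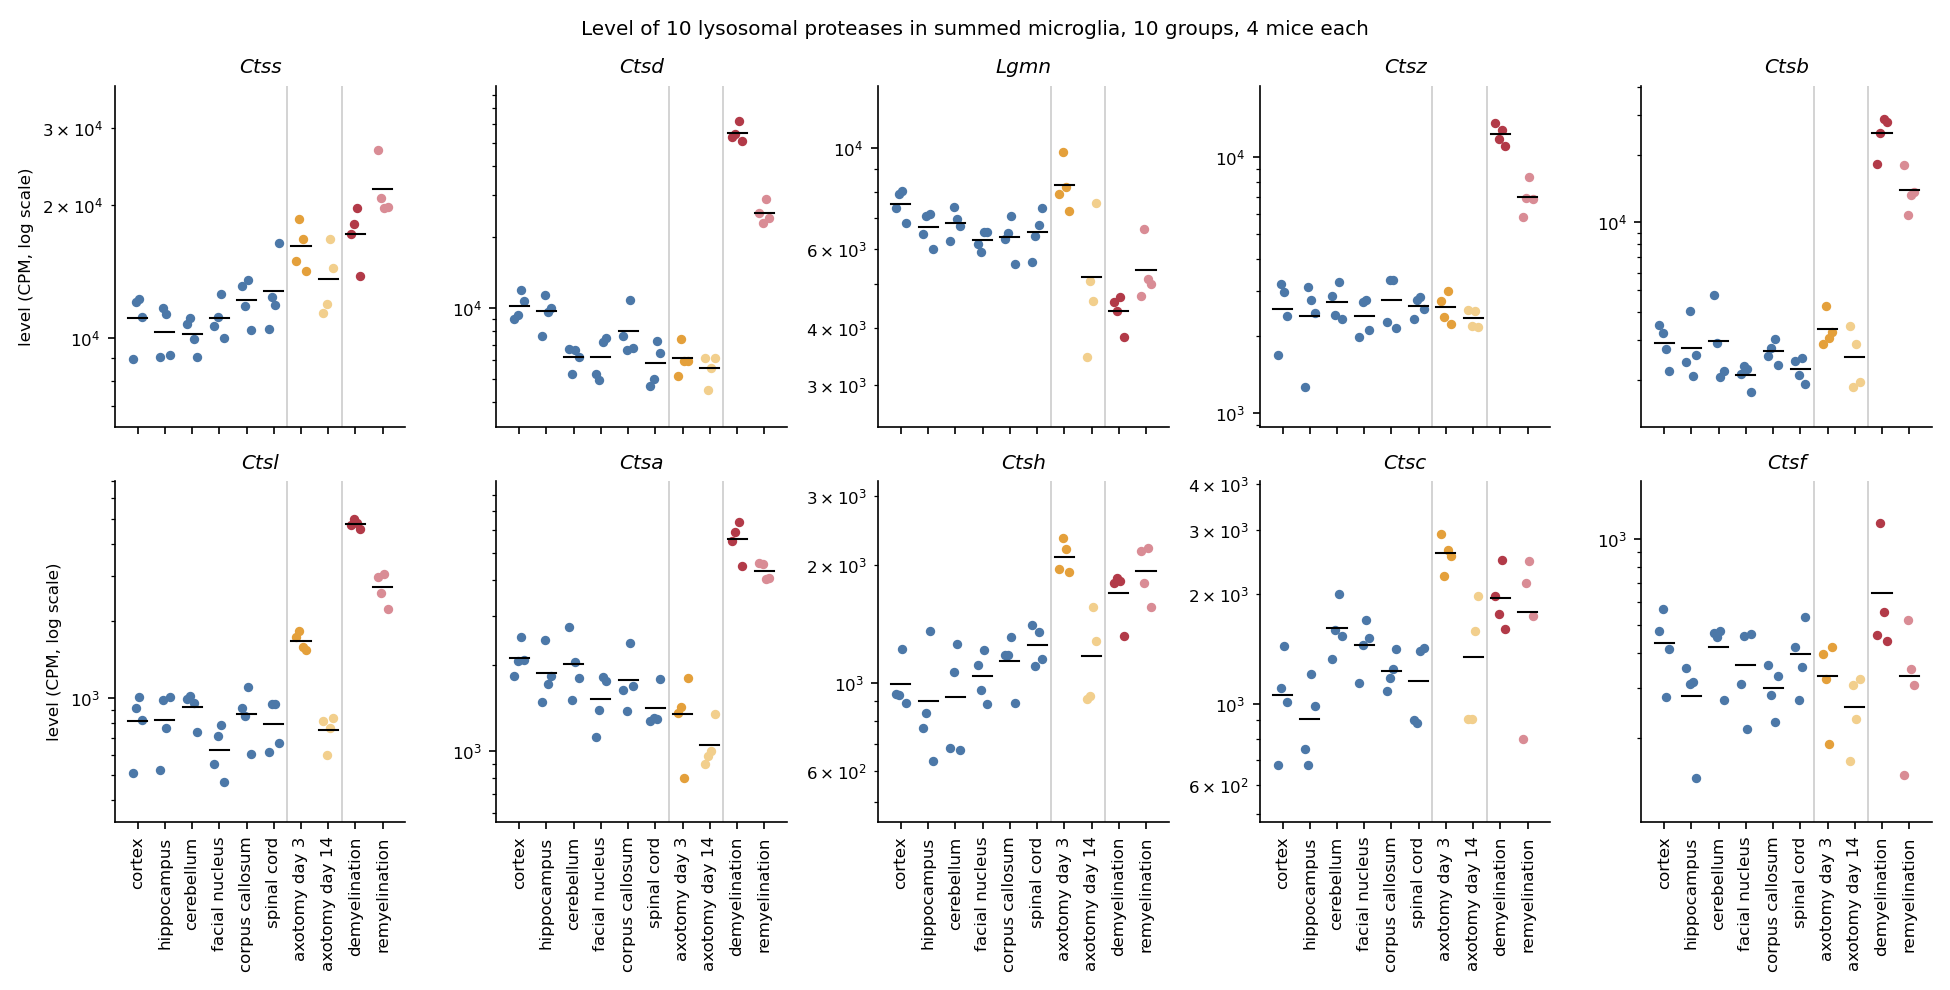
Level of each of the 10 genes in every mouse (points) and the group mean (bar), in CPM scaled with TMM factors over all 40 sums on a log axis, for the 10 groups with 4 mice each. The demyelination and remyelination points of Ctsb, Ctsd, Ctsl and Ctsz lie above all other groups, with means of 55159 and 25244 CPM for Ctsd, while Lgmn is lowest in demyelination at 4363 CPM.

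Between untreated regions the family varied little. The mean of the highest region was 1.15 times that of the lowest for Ctsz, 1.20 times for Lgmn and 1.25 times for Ctss, and at most 1.78 times (Ctsc). When all 6 regions were tested together (edgeR's quasi-likelihood F test, Benjamini-Hochberg adjusted over 22907 genes), Ctsd alone of the 10 was called, at an adjusted p of 0.0123, where 0.1% of all genes were called. With the replicate number as a block in the fit, Ctsc was called as well, where 39 of 22907 genes were called. Ctsd read 8993, 9322, 11877 and 10700 CPM in the cortex of mice 1 to 4, and 7635, 11390, 9659 and 10021 CPM in hippocampus. Corpus callosum held 7600, 6667, 10785 and 6772 CPM, cerebellum 6705, 5274, 6642 and 6198 CPM, and facial nucleus 5266, 4982, 7209 and 7451 CPM. Spinal cord was lowest, at 4657, 5030, 7278 and 6479 CPM. The cortex range lay above those of cerebellum, facial nucleus and spinal cord, and neighbours in the order of region means overlapped throughout.

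The high regions of Ctsd were those of a single plate, which held cortex and hippocampus, so that region and plate cannot be told apart between plates. Between regions on the same plate no member passed the test. Of all genes, 0% were called between cortex and hippocampus, 0.00437% between cerebellum and facial nucleus, and 0% between spinal cord and corpus callosum. At an unadjusted p below 0.05 edgeR gave 1 member between cortex and hippocampus (Ctsf, higher in cortex by 0.62 ± 0.29 log2 units, SE), 3 between cerebellum and facial nucleus (Ctsa, Ctsb and Ctsl) and 1 between spinal cord and corpus callosum (Ctsd, a log2 difference of -0.42 ± 0.15, adjusted p = 0.735). Over all genes 10.3%, 11.3% and 6.57% had such a p, so that 1 of 10 members is close to the background. DESeq2 called 0 members in each, where it called 3.3%, 3.71% and 1.69% of genes. The summed microglia markers were likewise highest in cortex, at 59557 to 69566 CPM, and their part in the Ctsd difference was not tested.

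After facial axotomy Ctsl was the only member called at day 3 against the untreated facial nucleus, where 0.145% of all 19319 genes tested were called and 0.14% were called higher. It read 1735, 1821, 1584 and 1539 CPM in the mice of day 3 and 556, 713, 783 and 471 CPM in the untreated nucleus. The lowest day 3 mouse was thus above the highest untreated mouse, with a 2.65-fold higher mean. On the log2 scale the difference was 1.41 ± 0.21 (SE, n = 4 mice per group, edgeR adjusted p = 0.00321).

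For 5 further members the day 3 mice also lay above the untreated range, without passing the test. The share of all genes that separate in this way is not given here, so the separation is a description only. Ctsh read 1956, 2341, 2204 and 1918 CPM at day 3 against 1115, 961, 1218 and 886 CPM, a log2 difference of 1.02 ± 0.20 with an adjusted p of 0.0510. Ctsc read 2912, 2233, 2647 and 2540 CPM against 1138, 1449, 1692 and 1515 CPM, a log2 difference of 0.85 ± 0.23 (adjusted p = 0.315). Ctss read 14965, 18573, 16811 and 14212 CPM against 10644, 11143, 12606 and 9992 CPM, a log2 difference of 0.55 ± 0.14 (adjusted p = 0.213). In each of these genes every day 3 mouse was above every untreated mouse. Ctsb (0.69 ± 0.20, adjusted p = 0.376) and Lgmn (0.41 ± 0.18, adjusted p = 0.536) also had no overlap. With library size alone as scaling, the edgeR differences were smaller and again not called. They were 0.81 (Ctsh, adjusted p = 0.120), 0.64 (Ctsc), 0.34 (Ctss), 0.47 (Ctsb) and 0.20 (Lgmn). DESeq2 called Ctsh beside Ctsl, where it called 2.5% of all genes, and 6 members had an unadjusted p below 0.05, as did 8.33% of all genes. The remaining members, Ctsz, Ctsd, Ctsf and Ctsa, had log2 differences between -0.17 and 0.12. Over the 10 members the median log2 difference was 0.48, beside 0.04 over all genes.

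By day 14 Ctsl was back at 817, 601, 766 and 834 CPM, overlapping the untreated nucleus. No member was called at day 14 against the untreated nucleus by edgeR (0% of all genes) or by DESeq2 (2.01% of all genes), and 2 had an unadjusted p below 0.05, beside 5.64% of all genes. Those were Ctsa, with a log2 difference of -0.54 ± 0.23 (adjusted p = 0.765), and Ctss, with 0.30 ± 0.14 (adjusted p = 0.831). On their shared plate, day 14 was also compared with day 3. There edgeR called 0 members where 0.0259% of all genes were called, DESeq2 called 1 (Ctsl) beside 1.77% of all genes, and 4 had an unadjusted p below 0.05 beside 6.6% of all genes. Those 4 were Ctsl (-1.15 ± 0.20, adjusted p = 0.0614), Ctsc (-0.95 ± 0.23, adjusted p = 0.241), Ctsh (-0.85 ± 0.20, adjusted p = 0.214) and Lgmn (-0.69, adjusted p = 0.345). Lgmn read 3459, 5082, 4606 and 7584 CPM at day 14, so that mouse 4 lay within the day 3 range of 7260 to 9806 CPM. Without mouse 4 of day 14, edgeR called 3 members lower than at day 3 (Ctsl, Ctsc and Lgmn). In that fit 20 of 21664 genes were called, 18 of them lower. Leaving out any other mouse of day 3 or day 14 gave 0 to 5 called genes and no called member.

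In cuprizone demyelination 5 of the 10 genes rose against untreated corpus callosum and 1 fell, where 5.16% of all 14057 genes tested were called, 3.08% higher and 2.08% lower. The 5 were Ctsd, Ctsb, Ctsl, Ctsz and Ctsa. DESeq2 called 6 members as well, beside 17.4% of all genes, and all 10 had an unadjusted p below 0.05, beside 20.3% of all genes. The median log2 difference of the members was 1.35, beside -0.33 over all genes.

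Ctsd held the most reads of the family in demyelination. It read 53080, 54404, 62077 and 51073 CPM in the mice of the demyelination stage and 7600, 6667, 10785 and 6772 CPM in untreated corpus callosum. The 2 ranges were far apart, and the mean of 55159 ± 4811 CPM (SD) was 6.93 times the untreated 7956 ± 1932 CPM. The log2 difference was 2.77 ± 0.14 (SE) with an adjusted p of 5.09e-09.

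Of the cysteine proteases Ctsb had the widest separation in fold terms. It read 18211, 24916, 28744 and 27851 CPM in demyelination against 2569, 2784, 3040 and 2334 CPM, a 9.30-fold higher mean. The lowest demyelination mouse was several times the highest untreated mouse, and the log2 difference was 3.19 ± 0.18 (adjusted p = 2.87e-08). Ctsl, the gene called after axotomy, read 4711, 5007, 4794 and 4546 CPM against 914, 849, 1109 and 607 CPM. Its 4 demyelination mice lay within a narrow band, with a mean 5.48 times the untreated mean and a log2 difference of 2.43 ± 0.18 (adjusted p = 7.04e-07). Ctsz read 13512, 11757, 12755 and 11079 CPM against 2279, 3304, 3315 and 2144 CPM. The mean was 4.45 times higher, a log2 difference of 2.12 ± 0.16 (adjusted p = 7.04e-07).

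The serine carboxypeptidase gene Ctsa read 5487, 5943, 6397 and 4500 CPM in demyelination against 1636, 1380, 2407 and 1686 CPM. The groups again did not overlap, with a 3.14-fold higher mean and a log2 difference of 1.62 ± 0.17 (adjusted p = 2.14e-05). Each of these 5 genes stayed called in all 19 alternative analyses run for it. The plot of log2 differences shows them beside the other comparisons.

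**Figure D2:**
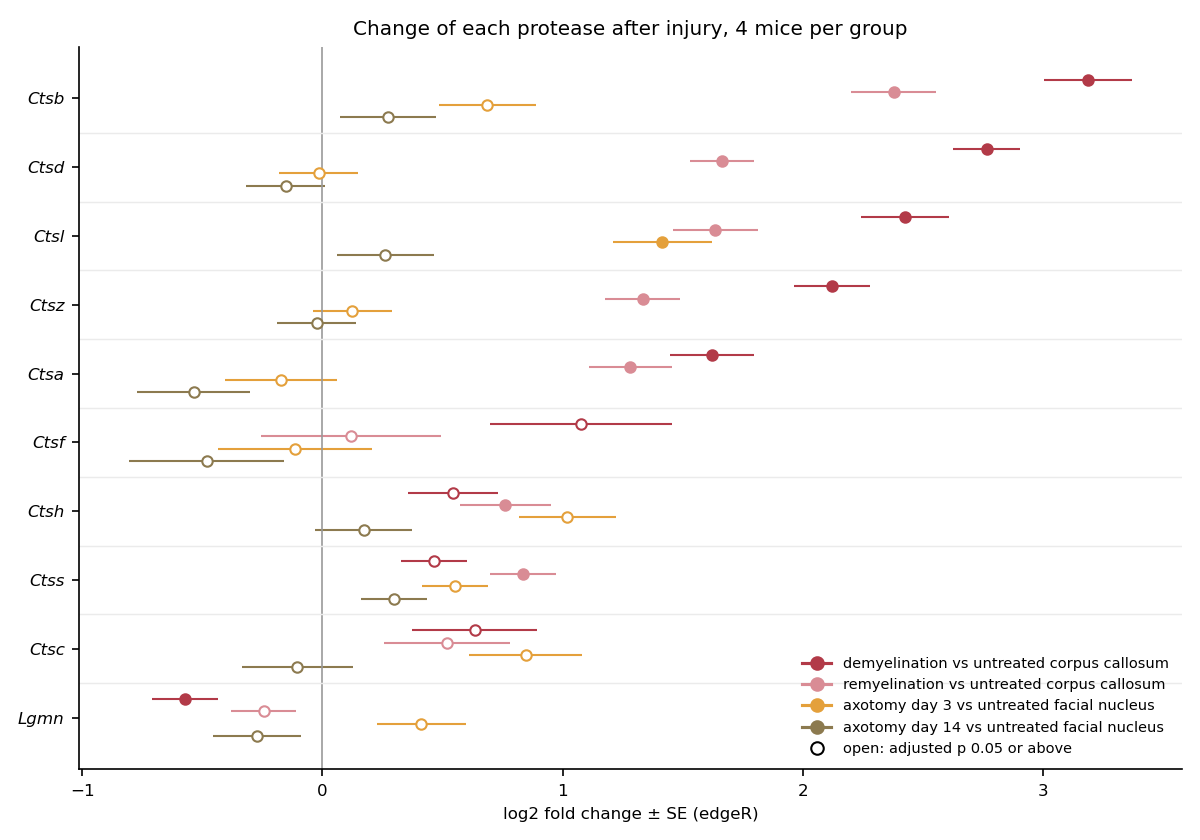
Log2 differences with standard errors for the 10 genes in 4 comparisons with the untreated region, 4 mice per group; filled points passed an adjusted p of 0.05. Ctsb (3.19) and Ctsd (2.77) stand highest in demyelination, Ctsl (1.41) is the filled point at day 3 and Lgmn (-0.57) the filled point below 0.

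Legumain went the other way. Lgmn read 4580, 4375, 4680 and 3816 CPM in demyelination against 6291, 6480, 7093 and 5551 CPM in untreated corpus callosum. All 4 demyelination mice were below the lowest untreated mouse, the mean was 1.46 times lower, and the log2 difference was -0.57 ± 0.14 (adjusted p = 0.0244). The call was fragile: it was lost when any of 3 corpus callosum mice (1, 2 or 3) or any demyelination mouse was left out, with adjusted p up to 0.111, and in cells with most microglia markers (below). The direction stayed the same throughout, and with library size alone as scaling the difference was -1.21 (adjusted p = 3.26e-05).

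The remaining 4 cysteine protease genes were not called in demyelination. Ctss read 17174, 18170, 19722 and 13823 CPM against 13097, 11839, 13501 and 10411 CPM, a log2 difference of 0.47 ± 0.14 (adjusted p = 0.0582). It was called in 5 of 19 alternatives: with no filter on low counts, with all 10 groups in the fit, with only the groups compared, with the replicate block, and without mouse 4 of demyelination. Ctsh differed by 0.54 ± 0.19 (adjusted p = 0.0944), Ctsf by 1.07 ± 0.38 (adjusted p = 0.0992) and Ctsc by 0.63 ± 0.26 (adjusted p = 0.165). Their 4 demyelination mice lay above the untreated range on the scaled CPM. The share of all genes that separate in this way is not given here, so this is a description only. With library size alone the signs of Ctss (-0.17), Ctsh (-0.10) and Ctsc (-0.01) turned. Per cell, without scaling factors, the median cell held less Ctss in demyelination than in corpus callosum (10806 against 12051 CPM). It also held less Ctsh (950 against 982 CPM) and Ctsc (1049 against 1210 CPM), but more Ctsf (58.0 against 16.4 CPM). Ctsf read 460, 1143, 556 and 440 CPM, so that mouse 2 raised its mean, while the other mice also lay above the untreated maximum of 361 CPM.

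The scaling bears on these values, since TMM factors of the demyelination sums were 0.681 to 0.755, against 1.02 to 1.16 in corpus callosum. With library size alone the median of all genes moved from -0.33 to -0.97, and the calls changed from 433 higher and 292 lower to 206 higher and 597 lower. The 5 risen genes and Lgmn kept their direction and their call. Their log2 differences were then 2.56 (Ctsb), 2.14 (Ctsd), 1.80 (Ctsl), 1.48 (Ctsz) and 0.99 (Ctsa).

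Markers of other states and cells moved with these results. In demyelination 8 of 12 microglia markers were called lower, among them Tmem119 (-2.98), Selplg (-2.01), Siglech (-1.91) and Cx3cr1 (-1.06), and 2 monocyte markers, Lyz2 and Fn1, were called higher. The comparison was therefore repeated in cells with a read of at least 8 of the 12 microglia markers, an alternative added after the data had been seen, which kept 101 of 161 demyelination cells and all 173 of corpus callosum. Wells without a cell held a read of P2ry12 in 16 of 20 and of Tmem119 in 13 of 20. Cells of another type could thus pass, and the repeat cannot show that they were removed. Ctsb (2.98 ± 0.23), Ctsd (2.64 ± 0.20), Ctsl (2.30 ± 0.18), Ctsz (2.12 ± 0.23) and Ctsa (1.59 ± 0.19) were all still called, at sizes close to those over all cells. Lgmn was not, at -0.41 ± 0.13 (adjusted p = 0.0744). There 244 of 13437 genes were called, against 725 of 14057 with all kept cells.

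Promoter sequence was read for the members that rose together, because lysosomal genes often carry the CACGTG box bound by TFEB and TFE3, the transcription factors of the lysosomal programme. RefSeq windows on GRCm38.p6 were found for 8 of the 10 genes, from 250 bases before to 50 after a start site, and Ctsb and Ctsh had none in the table used. The 8 genes had 10 windows in all, and CACGTG was searched on both strands. It occurred in 5 of the 10 windows, those of 5 genes (Ctsa, Ctsd, Ctsf, Ctsl and Lgmn), beside 7.15% of 32851 promoters. Of these genes Ctsa, Ctsd and Ctsl were called higher in demyelination, Lgmn was called lower and Ctsf was not called. The 7-base form TCACGTG, which contains it, occurred in 3 of the 10 windows (Ctsa, Ctsd and Lgmn), beside 3.77% of promoters. Printed below from 250 bases before the start to 30 after it are Ctsd at chr7:142387798-142388077 (minus strand), the second start of Ctsa at chr2:164833523-164833802 (plus strand), and Ctsz at chr2:174439010-174439289 (minus strand), which rose and whose window holds no box. Capitals mark CACGTG and, where present, the T before and A after it.
Ctsd: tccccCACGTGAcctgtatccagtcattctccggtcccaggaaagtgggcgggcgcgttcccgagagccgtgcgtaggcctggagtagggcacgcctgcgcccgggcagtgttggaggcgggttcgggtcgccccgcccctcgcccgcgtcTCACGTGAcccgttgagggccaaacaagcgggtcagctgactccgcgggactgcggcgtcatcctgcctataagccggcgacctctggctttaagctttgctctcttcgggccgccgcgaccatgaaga
Ctsa: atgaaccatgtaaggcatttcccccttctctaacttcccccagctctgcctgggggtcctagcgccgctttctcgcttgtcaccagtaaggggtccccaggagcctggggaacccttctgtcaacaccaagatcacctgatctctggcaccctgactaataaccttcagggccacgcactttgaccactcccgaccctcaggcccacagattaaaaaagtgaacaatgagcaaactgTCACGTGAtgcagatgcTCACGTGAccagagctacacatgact
Ctsz: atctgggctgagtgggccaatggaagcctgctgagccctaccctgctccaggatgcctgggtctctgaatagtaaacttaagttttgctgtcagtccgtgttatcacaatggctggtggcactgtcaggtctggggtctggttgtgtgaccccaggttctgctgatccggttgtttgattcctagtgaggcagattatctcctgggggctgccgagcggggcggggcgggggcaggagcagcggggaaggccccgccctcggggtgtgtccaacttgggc
In Ctsd the 2 boxes begin 245 and 98 bases before the start, and in Ctsa 12 bases before and at base 5 after it. The window of the other Ctsa start and that of the outer Lgmn start held none, while the inner Lgmn start had a box 49 bases before it. Of other motifs, AGGAAG, the core of sites for PU.1 and related factors, lay in 2 of the 10 windows beside 35.4% of promoters. The AP-1 motif TGAGTCA lay in 0 beside 5.20%. These matches describe letters in these windows only.

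At the remyelination stage 7 of the 10 genes were higher than in untreated corpus callosum, where 3.12% of all genes were called and 2.51% called higher. With library size alone the calls over all genes changed from 353 higher and 85 lower to 148 higher and 175 lower. The members' median log2 difference was 1.06, beside -0.31 over all genes. DESeq2 called 5 of the members, beside 14.3% of all genes, and 7 had an unadjusted p below 0.05, beside 18.8% of all genes. Both cuprizone stages were compared with the same untreated mice. Markers moved in this comparison too: 6 of 12 microglia markers were called lower, and the monocyte markers Lyz2 and Fn1, the border macrophage marker Ms4a7, the myelin gene Mbp and the endothelial marker Flt1 were called higher. Beyond the marker-rich cells below, a filter that cells of another type could pass, their part in the result was not tested.

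Ctsd read 25293, 22800, 28960 and 23921 CPM in remyelination, 3.17 times the untreated mean and a log2 difference of 1.66 ± 0.13 (adjusted p = 1.89e-06). Ctsb read 17987, 10769, 13272 and 13679 CPM, 5.19 times the untreated mean and a log2 difference of 2.38 ± 0.18 (adjusted p = 8.76e-07). Ctsl read 2968, 2571, 3044 and 2220 CPM, a log2 difference of 1.64 ± 0.18 (adjusted p = 3.51e-05). All 3 genes therefore sat between the untreated and the demyelination ranges with no overlap to either, although mouse 1 came close to the lowest demyelination mouse for Ctsb. Ctsz read 5809, 6943, 8382 and 6844 CPM (1.33 ± 0.16, adjusted p = 6.73e-05). Ctsa read 4599, 4554, 4026 and 4087 CPM (1.28 ± 0.17, adjusted p = 0.000257), and its range overlapped that of demyelination.

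Ctss and Ctsh joined the called genes at this stage. Ctss read 26663, 20760, 19738 and 19838 CPM, every mouse above the untreated 10411 to 13501 CPM, with a log2 difference of 0.84 ± 0.14 (adjusted p = 0.00191). Ctsh differed by 0.76 ± 0.19 (adjusted p = 0.0364), a call kept in 8 of 19 alternatives and lost without mouse 1, 2, 3 or 4 of corpus callosum or mouse 1 or 3 of remyelination. Both calls were lost with library size alone (0.15 for Ctss, 0.08 for Ctsh), with DESeq2 (0.67 and 0.59) and in marker-rich cells. Not called were Ctsc (0.52, adjusted p = 0.310), Ctsf (0.12, adjusted p = 0.921) and Lgmn (-0.25 ± 0.14, adjusted p = 0.375). With library size alone Lgmn was called lower (-0.92, adjusted p = 0.000607), and the signs of Ctsc (-0.14) and Ctsf (-0.54) turned.

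Few remyelination cells carried most microglia markers: 50 of 129 had a read of at least 8 of 12, and the smallest mouse sum then held 7 cells. In these cells Ctsb (1.63, adjusted p = 0.000974), Ctsl (0.92, adjusted p = 0.0198), Ctsa (0.86, adjusted p = 0.0425) and Ctsd (0.87, adjusted p = 0.0473) stayed called against untreated corpus callosum. Ctsz (0.93, adjusted p = 0.0889), Ctss (0.24, adjusted p = 0.524) and Ctsh (0.45, adjusted p = 0.388) did not. There 74 of 13437 genes were called, against 438 of 14057 with all kept cells. The differences of these genes were each smaller than with all kept cells. Examples were Ctsd (0.87 ± 0.19 against 1.66 ± 0.13), Ctsl (0.92 ± 0.18 against 1.64 ± 0.18) and Ctss (0.24 ± 0.14 against 0.84 ± 0.14). What lay behind the smaller differences was not tested.

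Between the cuprizone stages, which shared a plate, Ctsd alone was called. It was lower in remyelination by -1.10 ± 0.13 log2 units (adjusted p = 0.00226), where 0.0427% of all genes were called and 0.0285% called lower, and the call was kept in all 19 alternatives. Ctsb (-0.81 ± 0.17, adjusted p = 0.166), Ctsz (-0.79 ± 0.15, adjusted p = 0.127) and Ctsl (-0.79 ± 0.18, adjusted p = 0.211) had lower values that did not pass, and 7 members had an unadjusted p below 0.05, beside 14.1% of all genes. In marker-rich cells Ctsd (-1.77, adjusted p = 0.000515), Ctsl (-1.39, adjusted p = 0.00152) and Ctsb (-1.35, adjusted p = 0.0166) were called lower, where 14 of 13437 genes were called. Ctss (0.37, adjusted p = 0.290) and Lgmn (0.33, adjusted p = 0.302) had differences in the other direction that did not pass.

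The demyelination effect was then set against the day 3 effect in a single fit of all 40 sums, which tests the difference between the effects. Of the 10 members 5 were called, 4 of them more strongly raised by demyelination, where 0.423% of 26684 genes were called, 0.157% higher and 0.266% lower. Ctsd differed by 2.82 ± 0.21 log2 units (adjusted p = 1.79e-13), Ctsb by 2.54 ± 0.29 (adjusted p = 3.57e-07), Ctsz by 2.04 ± 0.26 (adjusted p = 2.79e-06) and Ctsa by 1.83 ± 0.28 (adjusted p = 9.93e-05). Lgmn differed by -0.95 ± 0.20 (adjusted p = 0.00895), a call lost with upper-quartile scaling (adjusted p = 0.126) and in marker-rich cells (adjusted p = 0.0792). Ctsl, called in both injuries, did not pass (1.05 ± 0.29, adjusted p = 0.0765), but was called with DESeq2 and with equal weight for each cell, at an adjusted p as low as 0.0354. DESeq2 called 6 members here, beside 13.2% of all genes. Not called by edgeR either were Ctsf (1.23, adjusted p = 0.129), Ctsh (-0.44, adjusted p = 0.398), Ctss (-0.05) and Ctsc (-0.17). The median over the members was 1.14, beside -1.44 over all genes.

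Added up, the 10 genes took 3.81% to 4.07% of all gene reads in the untreated regions on average, and 4.07% ± 0.32 (SD) in corpus callosum. This share, which no scaling factor touches, was 4.47% ± 0.35 at day 3, 3.95% ± 0.31 at day 14, 9.04% ± 0.66 in demyelination and 5.85% ± 0.18 in remyelination. The lowest demyelination mouse (8.24%) and the lowest remyelination mouse (5.61%) were above the highest corpus callosum mouse (4.49%). Within cells the median share was 3.86% in corpus callosum, 8.36% in demyelination and 5.23% in remyelination, and the middle 80% of demyelination cells ran from 4.03% to 13.5%.

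The make-up of the family changed with it. Per kilobase, Ctss made up 47.4% ± 2.3 (SD) of the 10 genes in corpus callosum, Ctsd 17.6% ± 2.3, Lgmn 14.4% ± 0.59 and Ctsb 2.98%. In demyelination Ctsd led with 41.6% ± 0.84, Ctss held 22.4% ± 1.7, Ctsz 15.1% ± 1.3 and Ctsb 9.35% ± 1.8, and Lgmn was down to 3.33% ± 0.18. Remyelination lay between, with Ctss at 39.9% ± 4.1, Ctsd at 26.8% ± 2.3 and Lgmn at 5.82% ± 1.2. At day 3 Ctss (52.1%) and Lgmn (15.6%) led, with Ctsd at 11.4%. Of these 4 groups, demyelination was the one led by Ctsd. These are shares of a total that itself grew in the cuprizone groups, so a lower share is not a lower level. On the scaled CPM the mean of Ctss was 17222 in demyelination and 12212 in corpus callosum, a difference that was not called. Lgmn had means of 4363 and 6354 CPM there.

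**Figure D3:**
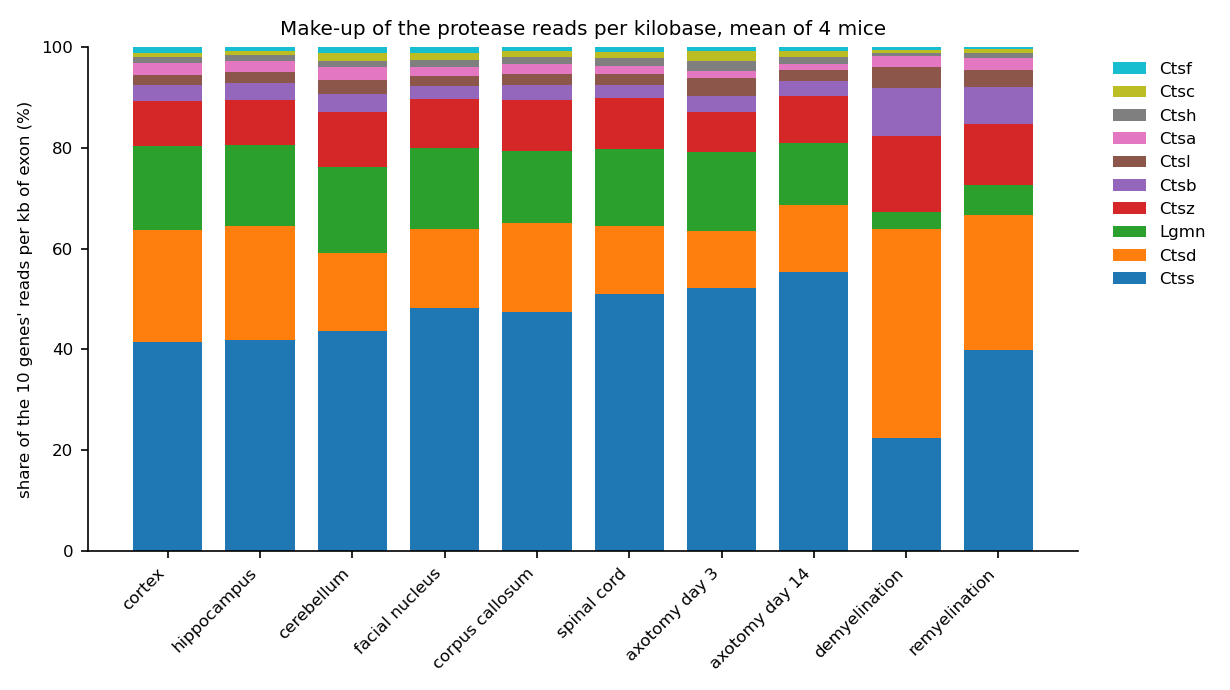
Share of each gene in the reads per kilobase of the 10 genes together, in percent, mean of 4 mice, for the 10 groups. Ctss is the widest band in the untreated regions (47.4% in corpus callosum), and Ctsd is the widest in demyelination (41.6%).

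The change of Ctsb and Ctsd was spread over most cells of the demyelination stage. Per cell, without scaling factors, 92.8% ± 8.2 (SD over mice) of demyelination cells were above the 90th percentile of corpus callosum cells for Ctsb, 82.5% ± 8.6 for Ctsd, 70.2% ± 4.1 for Ctsz, 62.0% ± 3.1 for Ctsl and 53.6% ± 5.9 for Ctsa. For Ctss, Ctsh, Ctsf and Ctsc the share was 9.21% to 15.7%, near the 10% that the cut itself sets in corpus callosum. Median cells held 33491 CPM of Ctsd in demyelination against 7651 CPM in corpus callosum, and 15099 against 2097 CPM of Ctsb. For Lgmn 93.2% ± 1.0 of demyelination cells lay below the corpus callosum median, and the median cell held 2663 against 6833 CPM. Lgmn also became more uneven, with a coefficient of variation across cells of 0.786 against 0.371.

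Remyelination cells were more divided. For Ctsb 64.8% ± 14.2 and for Ctsd 62.0% ± 11.7 of them were above the corpus callosum cut, and 81.9% were below the corpus callosum median of Lgmn. At day 3, 39.0% ± 6.2 of cells exceeded the 90th percentile of the untreated facial nucleus for Ctsl, 32.7% ± 3.3 for Ctsh and 25.6% for Ctsc, so that most day 3 cells stayed below the cut for each gene.

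Cells with any read were counted as well. With every cell thinned to 20000 reads, Lgmn was found in 100% of corpus callosum cells, 91.7% ± 3.0 of demyelination and 89.9% ± 4.7 of remyelination cells (99.3% and 96.9% without thinning). Ctsl was found in 80.9% ± 5.6 of corpus callosum cells and 96.9% ± 2.3 of demyelination cells (87.9% and 99.5% without thinning). At day 3 Ctsl was found in 85.0% ± 5.0 of cells against 67.3% ± 3.5 in the untreated nucleus (91.0% and 77.8% without thinning). Ctsf was the member least often found, in 47.1% ± 8.6 of corpus callosum and 37.0% ± 9.3 of remyelination cells (57.5% and 50.4% without thinning). Ctsc was found in 58.1% ± 18.3 of remyelination cells against 85.4% ± 8.7 in corpus callosum (74.9% and 94.9% without thinning), with mouse 1 of remyelination lowest at 31.0%. All kept cells are labelled as microglia, so no cell type that lacks these genes gives a background; the 20 wells without a cell had a read of Ctsl in 12 and of Lgmn in 16, at a median of 1 and 2 reads.

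Within the demyelination stage Ctsb and Ctsd varied together from cell to cell. Their rank correlation was 0.74 over 161 cells and 0.75 to 0.79 within single mice, beside 0.27 in corpus callosum (0.29 to 0.32 within mice). Ctsd also went with Ctsz (0.61, against 0.27 in corpus callosum) and with Ctsl (0.59, against -0.01). Over all 45 pairs of members the median was 0.22 in demyelination and 0.08 in remyelination, beside 0.08 in corpus callosum. It was 0.27 at day 3 and 0.22 at day 14, beside 0.17 in the untreated facial nucleus. These are descriptions: cells of a mouse share a plate and a depth, and Ctsd itself correlated with the reads of the cell at 0.36 in demyelination.

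Lgmn stood outside that group. In demyelination cells it correlated at 0.16 with Ctsb and 0.14 with Ctsd, but at 0.45 with P2ry12 (0.17 to 0.64 within mice), a gene of the microglia marker list. With Lyz2 the value was -0.27. Ctss went with Apoe at 0.51. In remyelination Ctsb correlated at -0.40 with Tmem119 and 0.42 with Lyz2, and Ctsd at -0.37 with Tmem119.

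**Figure D4:**
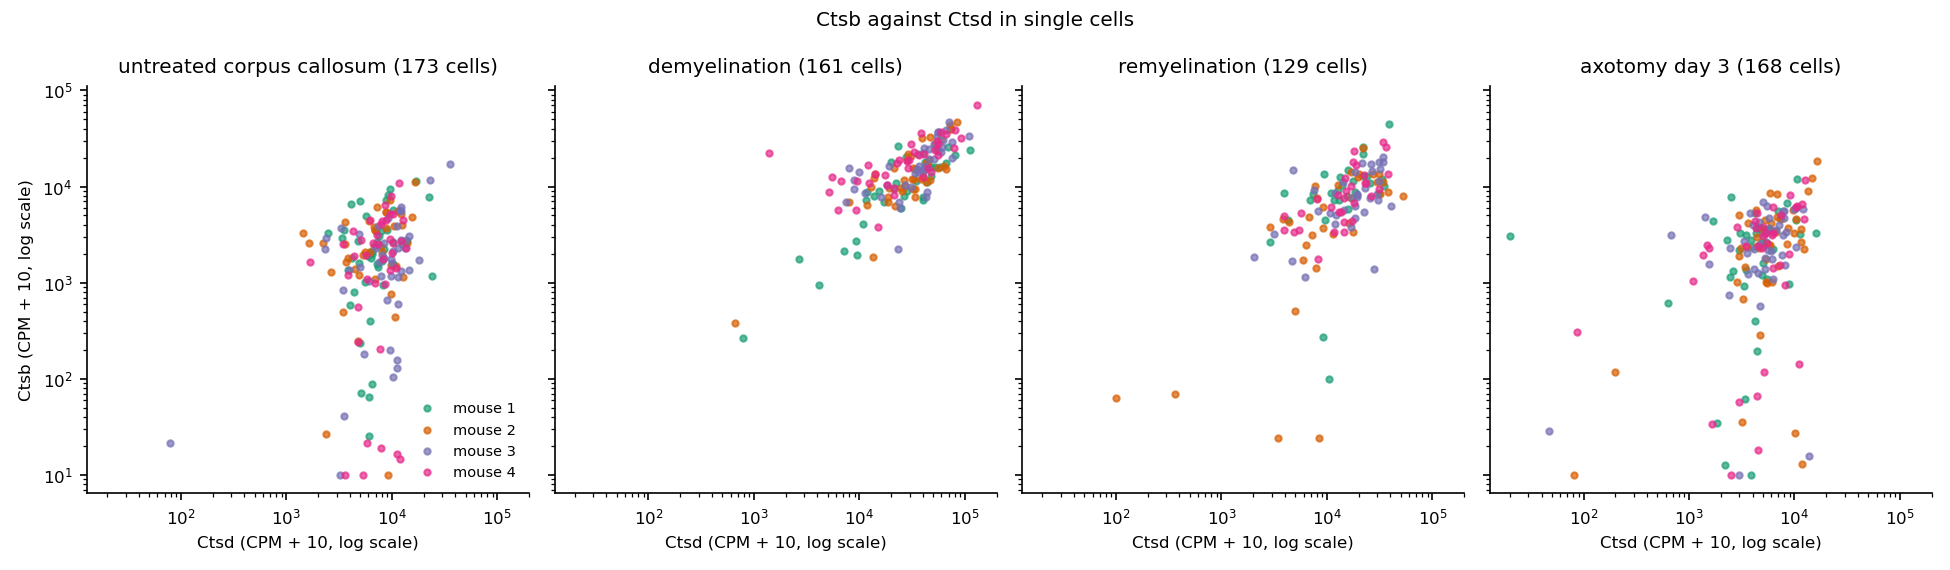
Ctsb against Ctsd in single cells of 4 groups, in CPM plus 10 on log axes, with colours for the mice. Demyelination cells are shifted up and right and form a slanted band (rank correlation 0.74), while corpus callosum cells form a rounder cloud (0.27).

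The rest of the lysosomal machinery was read from fixed lists to place these genes. In demyelination the proton pump that acidifies the lysosome had 8 of 13 genes called higher and 0 lower, with a median log2 difference of 1.92 beside -0.33 over all genes. Examples were Atp6v0d1 (2.19 ± 0.31) and Atp6v1a (2.41 ± 0.37). Of 21 glycosidases and lipid hydrolases 8 were called higher and 0 lower (median 0.91), among them the lipase gene Lipa (2.71 ± 0.35) and the glucuronidase gene Gusb (2.38 ± 0.26). Lysosomal membrane and related proteins had 5 of 11 higher (median 1.34), with the tetraspanin gene Cd63 (4.09 ± 0.33) and the cholesterol carrier gene Npc2 (2.05 ± 0.19). Other lysosomal peptidases had 3 of 8 higher (median 1.56), namely Scpep1 (2.14 ± 0.34), Dpp7 (1.91 ± 0.37) and Tpp1 (1.32 ± 0.26). With library size alone these counts fell to 4 pump genes, 3 hydrolases with 2 lower, 4 membrane genes and 1 peptidase, and their medians remained above 0.

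Inhibitors and sorting genes were less uniform. Of 6 cathepsin inhibitors tested, Cst7 (10.74 ± 0.91, from near 0 in corpus callosum, so that its size depends on the fit's prior count) and Cstb (3.41 ± 0.40) rose and Cst3, encoding cystatin C, fell (-1.28 ± 0.16, adjusted p = 7.51e-05). Cst3 was called higher again in remyelination against demyelination (1.10 ± 0.16, adjusted p = 0.00929). Of 13 genes that sort enzymes to lysosomes, the clathrin genes Clta (1.70 ± 0.28) and Cltc (1.07 ± 0.28) were called, and the median of 0.20 turned to -0.42 with library size alone and to -0.05 with DESeq2 size factors. Of 10 genes of endosomal substrates Cd74, the invariant chain cut by cathepsin S, was called (3.84 ± 1.01, adjusted p = 0.0478), though not with library size alone, and H2-DMa, the other abundant gene of that list, differed by 0.87 ± 0.38 (adjusted p = 0.202). None of 7 transcription regulators was called by edgeR (1 at an unadjusted p below 0.05, and DESeq2 called Mitf), including Spi1 (0.43 ± 0.30, adjusted p = 0.485) and Tfe3 (-0.17 ± 0.52, adjusted p = 0.907). Of 14 other cathepsins only Ctse (3.11 ± 1.46, adjusted p = 0.252) and Ctso (0.23 ± 0.60, adjusted p = 0.892) had enough reads to be tested.

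In remyelination the counts were 7 of 13 pump genes, 7 of 21 hydrolases, 5 of 11 membrane genes, 2 of 8 peptidases and 3 of 10 endosomal substrates called higher, with Cd74 (6.95 ± 1.16) and H2-Aa (8.84 ± 1.75) among the last, and none lower. With library size alone they were 2, 1 (and 1 lower), 3, 1 and 2. At day 3 after axotomy the only gene called in these lists was Cd63, named here after its value was seen, and with the other 3 scalings it was not called. DESeq2 called Cst7 and Atp6v1g1 beside it.

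**Figure D5:**
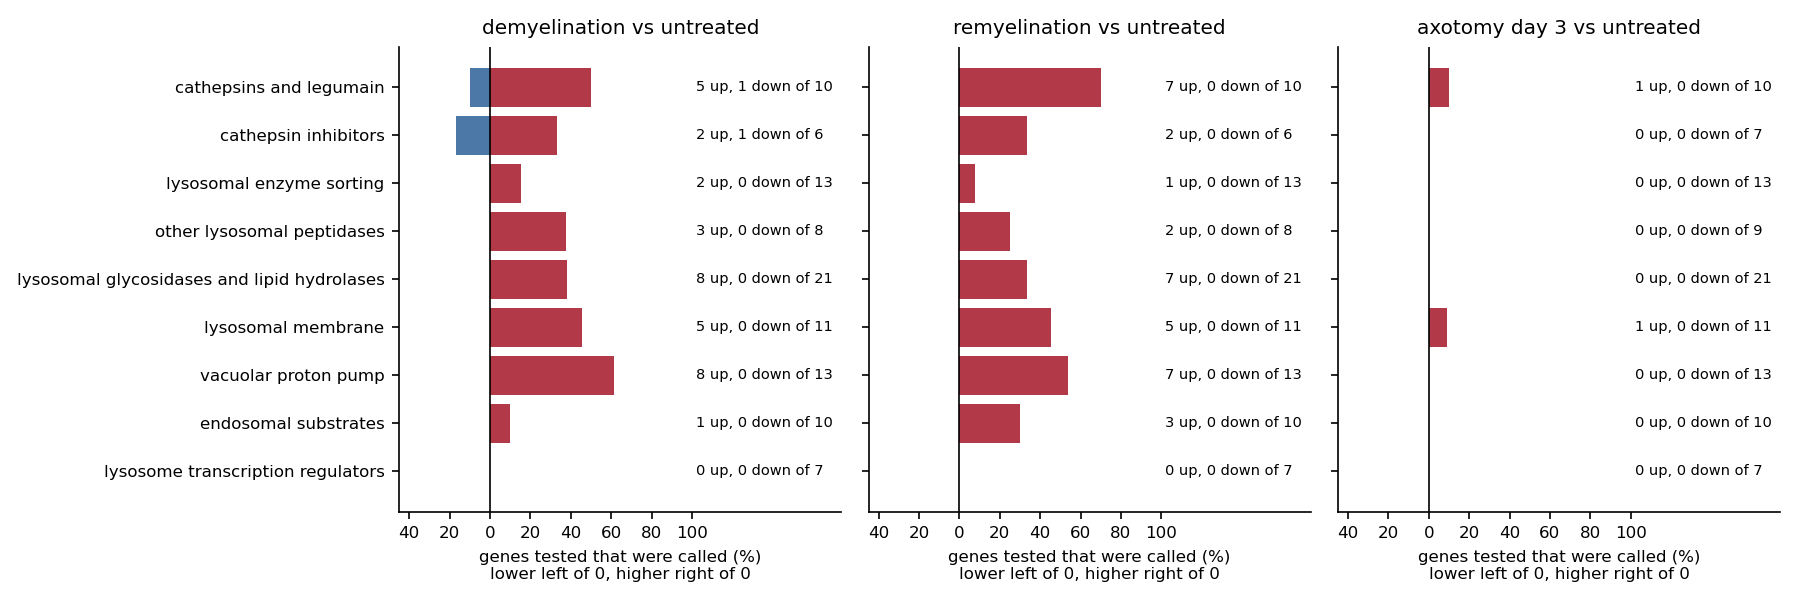
Percent of the genes tested in each list that were called higher (right) or lower (left) in demyelination, remyelination and day 3 after axotomy, each against its untreated region. Pump genes reach 8 of 13 in demyelination, beside 3.08% of all genes called higher.

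Searching 3792 other genes for patterns over the 10 group means like those of the members gave lysosomal genes for several. For Ctsd the closest were Pld3 (Pearson r = 0.996 over 10 group means, 0.937 over the 40 sums) and Creg1 (0.987 and 0.894). For Ctsb they were Lamp1 (0.990 and 0.846) and Apoc1 (0.984 and 0.955). Ctsa was close to Cd68 (0.971 and 0.906), Ctsz closest to Apoc1 (0.981 and 0.910) and Psmd2 (0.978 and 0.677), and Ctsl was close to Cltc (0.984 and 0.813). Ctss was closest to Ms4a6c (0.963 and 0.783), Ctsh to Tmem123 (0.956 and 0.577) and Lgmn to Capn3 (0.929 and 0.547). For Ctsf and Ctsc the likeness over group means did not carry over to the sums, as with Eif3g (0.904 and 0.103) and Dpy19l1 (0.930 and 0.310). These are descriptions over groups that share plates, and the cuprizone groups set the range of most of these genes.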

How the data were processed

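Smart-seq2 read counts were deposited by the authors as raw counts per Ensembl gene and well; STAR 2.5.2b, featureCounts 1.5.1 and GRCm38 are named in the submitters' processing notes, and whether strand was used is not given in the sources used here. Reads are not molecules, since no molecular identifiers were used. Cells were kept with at least 20000 gene reads, 500 genes, under 25% mitochondrial and under 50% spike-in reads, and doublets were not called (1 sorted cell per well). Counts were summed per mouse and group and tested with edgeR 4.0.16 (R 4.3.3; TMM, filterByExpr with minimum counts of 10 and 15, robust quasi-likelihood F test, Benjamini-Hochberg over all genes, threshold 0.05). Scripts were tested on simulated data. Fits held the 6 untreated regions, the 3 axotomy groups, the 3 cuprizone groups, or all 10 groups for the difference of effects; DESeq2 1.42.0 was an alternative. Levels are CPM with TMM factors over all 40 sums; per-cell CPM carries no factor. Labels number mice 1 to 4 in each group, while the series description gives 3 to 4 mice for a condition and ties no number to an animal, so p-values measure the spread between the labelled mice. No 2 replicate sums were the same library deposited again (lowest chi-square per degree of freedom 67.1 over 60 pairs), which does not show that the labelled mice are separate animals. The 10 genes and all lists were chosen with earlier results of these data known. Named were all 10 members, and in each list up to 4 called genes with the smallest adjusted p or, with fewer than 2 called, the 2 most abundant; for each member up to 2 genes with the highest correlation over group means, at 50 CPM or more. A few genes that these rules would name are not reported here.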

Additional observations from a re-analysis of the deposited data

Results flagged for a closer look

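In 6 of 100 sets of 4 mice (10 genes in 10 groups) a single mouse stood apart by Dixon's 95% criterion for 4 values, and chance alone marks about 1 in 20. Ctss reached 26663 CPM in mouse 1 of remyelination, with the others at 19738 to 20760 CPM. Ctsh was 1319 CPM in mouse 4 of demyelination, with the others at 1803 to 1859 CPM, and 1222 CPM in mouse 3 of cortex, with the others at 893 to 940 CPM. Ctsf was 1143 CPM in mouse 2 of demyelination, with the others at 440 to 556 CPM, and 273 CPM in mouse 4 of cerebellum, with the others at 454 to 478 CPM. Ctsa was 1784 CPM in mouse 4 of spinal cord, with the others at 1274 to 1301 CPM.

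The effects of demyelination and of axotomy at day 3 differed by the test of the difference itself for 5 genes. On the log2 scale, demyelination effect minus day 3 effect, the values were 2.82 for Ctsd, 2.54 for Ctsb, 2.04 for Ctsz, 1.83 for Ctsa and -0.95 for Lgmn.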

How the results depend on the processing

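Over at most 25 alternatives per comparison, 1930 values of the members were recomputed. Of these, 1872 kept their direction and side of the threshold or were called in neither fit. A call was lost in 25 and gained in 33. No called value turned its sign, while 64 uncalled ones did. Using all labelled cells, or leaving out Apoe and mitochondrial reads, changed no call. At day 3 edgeR called 1 member, and 2 were called with DESeq2, with upper-quartile scaling, with all 10 groups in the fit or with only the groups compared, and 3 with no filter on low counts. Of all genes, edgeR called 28 in the main fit and 27 with upper-quartile scaling. It called 33 with all 10 groups, 36 with only the groups compared and 92 with no filter. Between day 14 and day 3 the 0 became 1 with DESeq2, 3 with no filter and 2 with all 10 groups, and 0 to 3 when a mouse was left out. Between remyelination and demyelination the 1 became 5 with no filter, 3 with all 10 groups, 1 to 2 when a mouse was left out, and 3 in cells with 8 of 12 microglia markers. Calls over all genes rose from 6 to 114 with no filter, 101 with all 10 groups and 14 in the marker-rich cells. In those cells 4 instead of 7 were called in remyelination against corpus callosum, where 74 instead of 438 of all genes were called. Over all genes DESeq2, without the filter on low counts, called 3386 in demyelination (599 higher, 2787 lower) against edgeR's 725, 2714 in remyelination against 438, and 527 at day 3 against 28. The marker alternative and library size alone were added after the data had been seen. The cause was not tested.

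With the replicate number as a block, 2 instead of 1 member differed among regions (Ctsc and Ctsd) and Ctss was gained in demyelination (0.46), and no other call changed. The numbers were not taken as pairs: same-numbered region sums correlated at -0.025 to 0.172, although 24 of 24 correlated best with their own number, as did 0 of 12 axotomy and 2 of 12 cuprizone sums. Region sums with the same number may thus not be independent, while the main region tests took them as such. Depth limits Ctsf most, and 7 cells in the smallest marker-rich remyelination sum.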
